A study of Drosophila melanogaster with 33 samples.

Results

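The nuclear genes for subunits of the oxidative phosphorylation complexes were followed in Drosophila melanogaster larval brains mutant for l(3)mbt and in tumours cultured from them. Members were all genes of the array annotation whose symbol starts with ND-, UQCR-, ATPsyn or Sdh, or with COX and a digit. The rule gave 73 of the 11982 genes that had a probe set annotated to that gene alone. These were 51 main subunits, 21 paralogs whose symbols end in L or in L and a digit, and the complex II assembly factor Sdhaf3. ND-MNLL, an accessory subunit of complex I, was kept with the main subunits although its symbol ends in L. Main subunits numbered 27 for complex I, 3 for complex II, 4 for complex III, 7 for complex IV and 10 for complex V. The paralogs numbered 5, 3, 2, 7 and 4 for the same complexes.

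Complexes I to IV, in the inner mitochondrial membrane, pass electrons from NADH and succinate to oxygen. They pump protons across the membrane on the way, except at complex II. Complex V, the ATP synthase, lets the protons flow back and makes ATP. Most subunits are encoded in the nucleus and are used by nearly every cell, the brain included. The fly genome also holds duplicated copies of many of these genes, and such copies are known mainly from the male germline. l(3)mbt encodes a chromatin protein with MBT repeats. Its loss is known to give overgrown larval brains in which germline genes are switched on.

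Total RNA had been hybridised to 33 Affymetrix arrays in 9 groups. Larval brains were homozygous for the ts1 allele at 29 °C (6 arrays), homozygous for ts1 at 17 °C (3 arrays), homozygous for the E2 allele at 29 °C (3 arrays) or at 17 °C (3 arrays), or carried ts1 over E2 at 29 °C (3 arrays). Tumours from ts1 brains had been passed through adult flies and were taken at round 1, 5 and 10 of this allograft culture (3 arrays each). The wild type (WT) was w1118 (6 arrays). Its labels give no temperature, so allele and temperature cannot be told apart in a comparison with WT. The tumour sample titles give none either. Culture, adult host and temperature therefore cannot be told apart where tumours are compared with brains. The labels also do not say whether arrays of a group hold separate pools of animals. The p-values therefore measure only the spread between these arrays. The sites were IRB with 24 arrays and EMBL with 9. WT and ts1 at 29 °C had 3 arrays at each site, ts1 at 17 °C was assayed at EMBL, and all other groups were assayed at IRB.

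Values are the deposited log2 GCRMA values, and a value under 4 is near background. A difference against a mean near or under 4 is not an exact size, and no fold is given for it. Each comparison was made between arrays of the same site in limma, with p adjusted over 8264 tested genes, and a difference was called where that p was under 0.05. For ts1 at 29 °C against WT, the differences at the 2 sites were averaged and are also given per site. The comparisons with WT at IRB share the same 3 WT arrays. In bulk tissue, fewer cells of a type and less RNA per cell cannot be told apart.

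On 3 arrays the 5′ end of the eIF4a control probe sets was weak against its 3′ end. The log2 difference of 5′ minus 3′ signal was -11.96 on the first E2 array at 29 °C. It was -5.25 on the second ts1 array at 17 °C. It was -4.94 on replicate 3 of the ts1 brains at 29 °C, an EMBL array. It was -2.38 or higher on the other 30 arrays. The median main subunit on these 3 arrays lay lower than on the other arrays of the group by 1.70, 0.80 and 0.86 on the log2 scale, with 48, 47 and 46 of 50 subunits lower. The median over all tested genes on the same arrays differed by -0.50, 0.01 and 0.01. Counts of subunits called are therefore also given without these arrays, for part of the comparisons only as totals in the closing sections. Counts of subunits without overlap are given with all arrays. The part of RNA quality in the results was not tested. l(3)mbt itself was measured at 7.91 ± 1.18 in ts1 brains at 29 °C and 7.52 ± 0.35 in WT brains (SD, n = 6 each). It averaged 9.09 ± 0.19 in round 10 tumours (SD, n = 3), 1.58 above WT (limma, adjusted p = 0.0233). The labels do not place the lesions against the probes, so this level does not check the alleles.

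**Figure D1:**
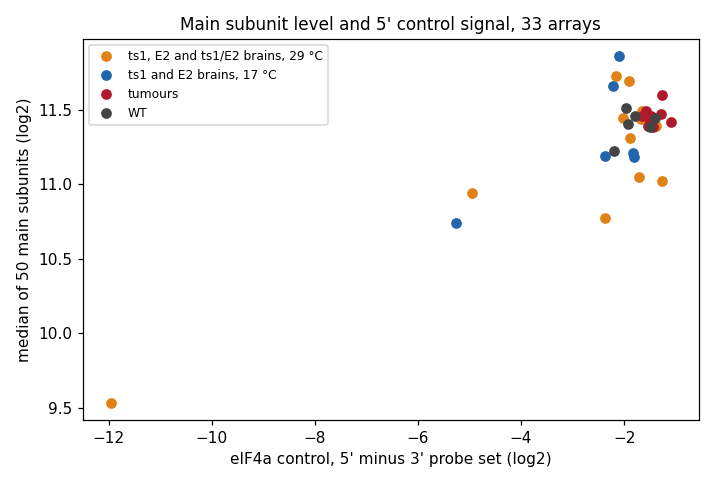
Median log2 value of the 50 tested main subunits on each of the 33 arrays (vertical axis) against the log2 difference of 5′ minus 3′ signal of the eIF4a control (horizontal axis). The 3 arrays with a difference of -4.94 or lower have medians between 9.54 and 10.9, and the other 30 arrays have medians between 10.8 and 11.9.

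Among the paralogs, the ATP synthase epsilon copy ATPsynepsilonL rose in mutant brains at both temperatures and in tumours, and the cytochrome c oxidase copy COX7AL rose in E2 and ts1/E2 brains at 29 °C and in tumours. COX4L rose in brains carrying E2 at 29 °C and in round 1 tumours, and COX7AL2 in round 1 tumours. The main genes of the same subunits did not rise with them. Of the 21 paralogs, 10 exceeded 4 on 3 or more arrays, the minimum for testing. Because several passed through the groups in which they are high, their number called is no measure of the set, and they are described gene by gene. ATPsynbetaL and COX6AL2 reached the minimum only through the group in which each was called higher. COX4L exceeded 4 only in groups in which it was called higher, and COX5BL only in tumours. The p-values of these genes in those groups are descriptive and are no independent test.

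ATPsynepsilonL encodes a copy of the epsilon subunit in the central stalk of the ATP synthase. In ts1 brains at 29 °C its values were 6.75, 5.27 and 5.62 at IRB and 8.46, 8.21 and 9.52 at EMBL. They were 8.55, 9.94 and 9.80 in ts1 brains at 17 °C, 8.31, 9.12 and 9.10 in E2 brains at 29 °C, 7.89, 7.46 and 8.70 in E2 brains at 17 °C and 8.86, 7.87 and 8.10 in ts1/E2 brains. Tumours had 9.93, 9.60 and 9.74 at round 1, 8.03, 9.95 and 9.34 at round 5 and 9.14, 6.08 and 7.85 at round 10, against 4.36, 3.43 and 4.49 in WT brains at IRB and 3.91, 3.83 and 4.54 at EMBL. Every mutant brain and tumour array lay above every WT array, and the IRB arrays of ts1 at 29 °C were the lowest mutant brains.

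Against WT, ATPsynepsilonL rose by 3.21 ± 0.42 (log2 difference ± SE, limma, adjusted p = 8.30e-06) in ts1 brains at 29 °C, where WT averaged 4.09. The EMBL arrays gave 4.64 (adjusted p = 7.66e-06) and the IRB arrays 1.79 (adjusted p = 0.0559), and the difference between the sites, -2.85, had an adjusted p of 0.0567 in limma. ts1 brains at 17 °C gave 5.34 (adjusted p = 4.10e-06) and E2 brains at 17 °C 3.92 (adjusted p = 0.000138). E2 brains at 29 °C gave 4.75 (adjusted p = 3.93e-06) and ts1/E2 brains 4.18 (adjusted p = 2.86e-05). Both alleles thus showed the rise at 17 °C. The difference between 29 °C and 17 °C was -0.70 for ts1 (adjusted p = 0.802) and 0.83 for E2 (adjusted p = 0.405), and neither passed the test.

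In tumours ATPsynepsilonL stood 5.66 above WT at round 1 (limma, adjusted p = 4.66e-08), 5.01 at round 5 (adjusted p = 2.76e-07) and 3.60 at round 10 (adjusted p = 3.40e-05). Round 10 lay 2.07 lower than round 1 (limma, adjusted p = 0.0355), and without round 10 replicate 2 this became 1.26 lower, a log2 difference of -1.26 with an adjusted p of 0.363. With arrays left out in turn it passed only without round 10 replicate 1. Round 1 tumours exceeded the ts1 brains at IRB by 3.88 (adjusted p = 2.13e-05). The main epsilon gene is sun, which the symbol rule does not take in. sun averaged 7.15 ± 0.37 in round 1 tumours (SD, n = 3) and 7.87 ± 0.29 in WT (SD, n = 6), a fall of 0.72 (limma, adjusted p = 0.0182). In no other comparison with WT was sun called, with differences between -0.58 at round 5 and -0.02 in E2 brains at 17 °C.

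COX7AL encodes a copy of subunit 7A of cytochrome c oxidase, a small subunit at the rim of complex IV. Its values were 8.37, 7.41 and 8.33 in round 1 tumours, 8.64, 8.93 and 8.43 at round 5 and 9.50, 8.87 and 8.89 at round 10. E2 brains at 29 °C had 6.51, 7.83 and 7.77 and ts1/E2 brains 8.30, 7.54 and 7.49, against 2.79, 3.93 and 2.77 in WT brains at IRB. None of these 5 groups overlapped WT, which lay near background on every array.

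Against WT, COX7AL was higher by 4.88 ± 0.78 at round 1 (limma, adjusted p = 2.07e-05), by 5.51 at round 5 (adjusted p = 3.25e-06) and by 5.93 at round 10 (adjusted p = 1.14e-06). E2 brains at 29 °C gave 4.21 (adjusted p = 0.000696) and ts1/E2 brains 4.62 (adjusted p = 0.000240). WT averaged 3.16, under the level of background. The main gene COX7A differed from WT by -0.12, -0.35 and -0.20 at rounds 1, 5 and 10, and by -0.05 in E2 brains at 29 °C and 0.10 in ts1/E2 brains, with no call.

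COX7AL differed between the temperatures in E2 brains. These brains had 6.51, 7.83 and 7.77 at 29 °C and 5.56, 2.75 and 5.47 at 17 °C, a difference of 2.77 (limma, adjusted p = 0.0271) that became 1.85 without E2 17 °C replicate 2 (adjusted p = 0.154) and did not pass without E2 29 °C replicate 3 (adjusted p = 0.0528). ts1 brains at EMBL had 5.87, 5.15 and 6.17 at 29 °C and 3.12, 3.25 and 3.29 at 17 °C, against 3.11, 3.15 and 3.22 in WT. These arrays did not overlap, and the difference between the temperatures was 2.51 (adjusted p = 0.0873). The rise in ts1 brains at 29 °C over WT was 2.57 at EMBL (limma, adjusted p = 0.0362). It did not pass without the arrays with a weak 5′ control (adjusted p = 0.0805), and with arrays left out in turn it passed only without ts1 replicate 2. At IRB the ts1 brains scattered, with 3.87, 6.47 and 1.46, the last under every WT array, and the difference was 0.77 (adjusted p = 0.610). Averaged over the sites the rise was 1.67 (adjusted p = 0.0468), and it no longer passed with any of 10 of the 12 arrays left out in turn, nor without the 3 weak arrays (adjusted p = 0.0742).

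COX4L, a copy of cytochrome c oxidase subunit 4, had 6.60, 4.43 and 4.89 in E2 brains at 29 °C, 5.0, 5.29 and 5.04 in ts1/E2 brains and 3.78, 4.3 and 4.71 in round 1 tumours, against 2.81, 2.74 and 3.33 in WT brains at IRB. All 3 groups lay above WT on every array. The differences were 2.35 (limma, adjusted p = 0.000298), 2.15 (adjusted p = 0.000794) and 1.30 (adjusted p = 0.0133). The rise at round 1 did not pass without round 1 replicate 3 (adjusted p = 0.0762) or WT replicate 2 (adjusted p = 0.0530). Without E2 29 °C replicate 1 and the other arrays with a weak 5′ control, the rise in E2 brains was 1.70 (adjusted p = 0.00359). E2 brains at 17 °C had 2.45, 3.62 and 3.79, and 29 °C exceeded 17 °C by 2.02 (limma, adjusted p = 0.00183). In ts1 brains at 29 °C the difference was 1.26 at IRB (adjusted p = 0.0450) and 0.28 at EMBL (adjusted p = 0.849). With arrays left out in turn the IRB rise passed only without ts1 replicate 6, and the adjusted p reached 0.194. The main gene COX4 was called in none of these comparisons, with differences of -0.38 in E2 brains at 29 °C, -0.03 in ts1/E2 brains and -0.26 at round 1.

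COX7AL2, another copy of subunit 7A, was raised at round 1, with 5.68, 5.82 and 5.77 in round 1 tumours, 4.25, 3.83 and 2.81 at round 5 and 3.22, 5.16 and 3.09 at round 10, against 2.70, 3.08 and 2.50 in WT at IRB. The round 1 arrays did not overlap those of any other group. The difference from WT was 3.00 ± 0.44 at round 1 (limma, adjusted p = 7.12e-06). Round 5 fell by 2.13 against round 1 (adjusted p = 0.00320) and round 10 fell by 1.93 (adjusted p = 0.00592), which did not pass without round 10 replicate 3 (adjusted p = 0.0634). COX5BL, a copy of subunit 5B, had 5.25, 4.48 and 4.34 at round 5 and 3.04, 5.26 and 5.95 at round 10, against 2.50, 2.24 and 2.16 in WT at IRB. It rose by 2.39 at round 5 (limma, adjusted p = 0.00547) and by 2.45 at round 10 (adjusted p = 0.00465), and 1 of the 3 round 1 arrays had 6.25.

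The other tested paralogs exceeded 4 on 4 to 8 of the 33 arrays. ATPsynbetaL, a copy of the catalytic beta subunit, had 2.41, 6.21 and 4.88 at round 5, against 2.34, 2.31 and 2.33 in WT at IRB, a rise of 2.18 (limma, adjusted p = 0.00804) that became 1.32 without round 5 replicate 2 (adjusted p = 0.105). COX6AL2, a copy of subunit 6A, had 3.29, 4.22 and 8.35 in ts1 brains at 29 °C at IRB, against 2.27, 2.80 and 2.55 in WT. Its rise of 2.75 (limma, adjusted p = 0.0438) became 1.21 without the array at 8.35 (adjusted p = 0.354), and its difference of -2.39 between round 1 tumours and those brains (adjusted p = 0.0350) became -0.86 (adjusted p = 0.415). Its rise over WT also did not pass with any 1 of the 3 WT arrays at IRB left out (adjusted p up to 0.148). UQCR-14L, UQCR-11L and ATPsynCF6L were called nowhere, although UQCR-11L had 4.03 to 5.66 in ts1 brains at 29 °C at IRB. On the first E2 array at 29 °C, whose 5′ control signal was weakest, they had 8.33, 6.39 and 6.75, against at most 3.30 on the other arrays of that group. COX6AL2 had 5.70 on that array.

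The other 11 paralogs stayed near background and were not tested. They were ND-20L, ND-24L, ND-51L1, ND-51L2 and ND-B14.5AL of complex I, SdhAL, SdhBL and SdhCL of complex II, COX6AL and COX6CL of complex IV, and ATPsynGL of complex V. COX6AL reached 5.97 and SdhAL 4.01 on 1 array each, and none of the others exceeded 3.01 on any array. The COX6AL value came from the first E2 array at 29 °C, whose 5′ control signal was weakest. Complexes I and II, the entry points of electrons, thus had no paralog with signal on 3 arrays.

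**Figure D2:**
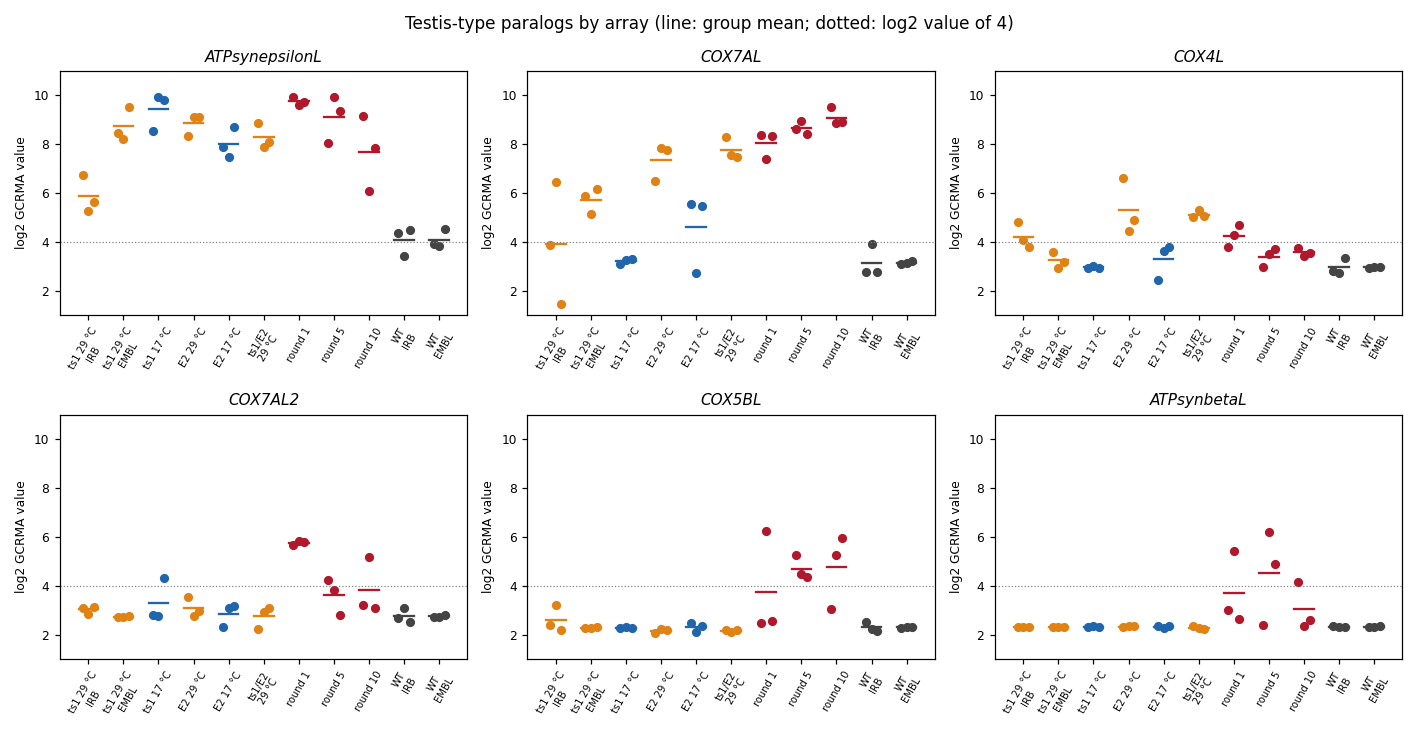
Log2 GCRMA value on each array (points) and group mean (lines) of 6 paralogs, by group along the horizontal axis with WT at the right; the dotted line marks a log2 value of 4. ATPsynepsilonL lies between 5.27 and 9.95 on all mutant and tumour arrays and at or under 4.54 in WT, and COX7AL reaches 7.41 to 9.50 in the tumours.

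Markers of testis moved with the paralogs in part. The mean over 11 testis markers, among them aly, can and dj, was 3.97 to 4.94 per array in E2 brains at 29 °C, 3.89 to 4.25 in ts1 brains at 29 °C at IRB and 4.21 to 4.76 in round 1 tumours, against 2.74 to 3.14 in WT at IRB. It was 3.14 to 3.26 in ts1 brains at 17 °C, where ATPsynepsilonL was at 8.55 to 9.94. In E2 brains at 29 °C the median over all probe sets was 3.58 to 4.62 per array. That median was 3.74 to 4.16 in ts1 brains at 29 °C at IRB and 3.72 to 4.05 in round 1 tumours. WT at IRB had 3.33 to 3.56 and ts1 brains at 17 °C 3.31 to 3.42. In round 1 tumours 4 of the 11 markers averaged above 4. Of 8 tested testis markers, 3 were called higher and 1 lower at round 1, where 15.2% and 19.3% of all genes were. The part of these genes, and of the level over all probe sets, in the results on the paralogs was not tested.

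Of the main subunits ND-B8, a complex I subunit, passed 4 on 1 array and was not tested, which left 50. In WT brains the median main subunit lay between 11.2 and 11.5 per array. In brains at 29 °C few subunits were called, all of them lower, and ND-13B, an accessory subunit of complex I, was called in both ts1 and E2 brains.

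In ts1 brains at 29 °C averaged over the sites, limma called 0 of 50 subunits higher and 3 lower, while over all tested genes 4.48% were higher and 7.68% lower. The median difference was -0.35, and -0.08 over all tested genes. The subunits called were ATPsyngamma, the central stalk subunit that turns inside the ATP synthase, at -0.59 ± 0.11 (limma, adjusted p = 0.000441), ND-13B at -1.0 ± 0.27 (adjusted p = 0.0133) and COX7B at -0.44 ± 0.15 (adjusted p = 0.0499). ATPsyngamma had 11.8, 11.9 and 11.9 at IRB and 11.8, 11.8 and 11.3 at EMBL, against 12.3, 12.3 and 12.3 in WT at IRB and 12.0, 12.6 and 12.4 at EMBL. The groups did not overlap. The second ATPsyngamma probe set gave -0.66 with an adjusted p of 0.237. Without the 3 arrays with a weak 5′ control, 2 subunits were called higher and 15 lower, with 7.18% and 12.5% over all genes.

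The sites differed. At IRB 0 subunits were called higher and 7 lower, with 3.55% and 6.79% over all genes. The median difference was -0.51, and -0.14 over all genes. Here 41 of 50 subunits lay lower than WT with no overlap of arrays and 1 higher, and over all genes 26.1% and 13.3%. Those lower included 21 of the 26 tested subunits of complex I, all 7 of complex IV and all 10 of complex V. The mean over 3 larval fat body markers was 3.65 to 4.67 in these ts1 brains, against 9.74 to 11.2 in WT at IRB, and 4.45 to 10.8 in ts1 brains at EMBL, against 8.30 to 11.5 in WT there. Their part in the result was not tested. The one higher subunit was UQCR-11 of complex III, with a difference of 1.13 that did not pass (adjusted p = 0.0964). At EMBL 0 were called higher and 1 lower, ATPsyngamma at -0.72 ± 0.15 (limma, adjusted p = 0.00242), with 4.59% and 4.78% over all genes. The EMBL median was -0.10. Without the 3 arrays 1 was higher and 32 were lower at IRB, with 7.59% and 15.6% over all genes. At EMBL 7 were then higher and 2 lower, with 7.96% and 8.28%.

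The difference between the IRB and EMBL effects of ts1 was tested directly. limma called 0 of 50 subunits in either direction, 10 had an unadjusted p under 0.05, all lower at IRB, and over all genes 1.2% were called higher and 2.7% lower. Without the 3 arrays 0 were called higher and 30 lower, and over all genes 5.61% and 11%. The IRB ts1 arrays had eIF4a differences of -2.38 to -1.27, against -1.97 to -1.50 in WT at IRB.

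At IRB the largest falls among the 7 were in ND-13B, ND-19 and COX8. ND-13B had 8.25, 8.40 and 8.15 in ts1 brains at IRB, against 10.4, 10.1 and 10.1 in WT, a difference of -1.93 ± 0.38 (limma, adjusted p = 0.00148, 3.81-fold). ND-19, another accessory subunit of complex I, had 8.69, 8.80 and 8.32 in ts1 brains and 9.95, 9.97 and 9.90 in WT, a difference of -1.34 ± 0.38 (adjusted p = 0.0262, 2.52-fold), and with arrays left out in turn it passed only without ts1 replicate 5 (adjusted p up to 0.102). COX8, a small subunit of complex IV, had 9.79, 9.88 and 10.3 in ts1 brains and 11.1, 11 and 11.1 in WT, a difference of -1.06 ± 0.26 (adjusted p = 0.00855, 2.09-fold).

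None of these 3 genes overlapped WT at IRB. At EMBL the same brains had 10.6, 10.2 and 9.62 for ND-13B, against 10.1, 10.2 and 10.3 in WT, and the ND-13B difference there was -0.08. The difference between sites had an adjusted p of 0.0506 for ND-13B, 0.116 for ND-19 and 0.0631 for COX8 in limma. The other subunits called at IRB were ND-B18 at -1.01, COX7B at -0.86, ATPsynB of the ATP synthase peripheral stalk at -0.82 and ND-B12 at -0.57. At EMBL the COX7B difference was -0.03. Another COX7B probe set, with a mean of 11.6, gave -1.20 at IRB and -0.81 at EMBL.

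**Figure D3:**
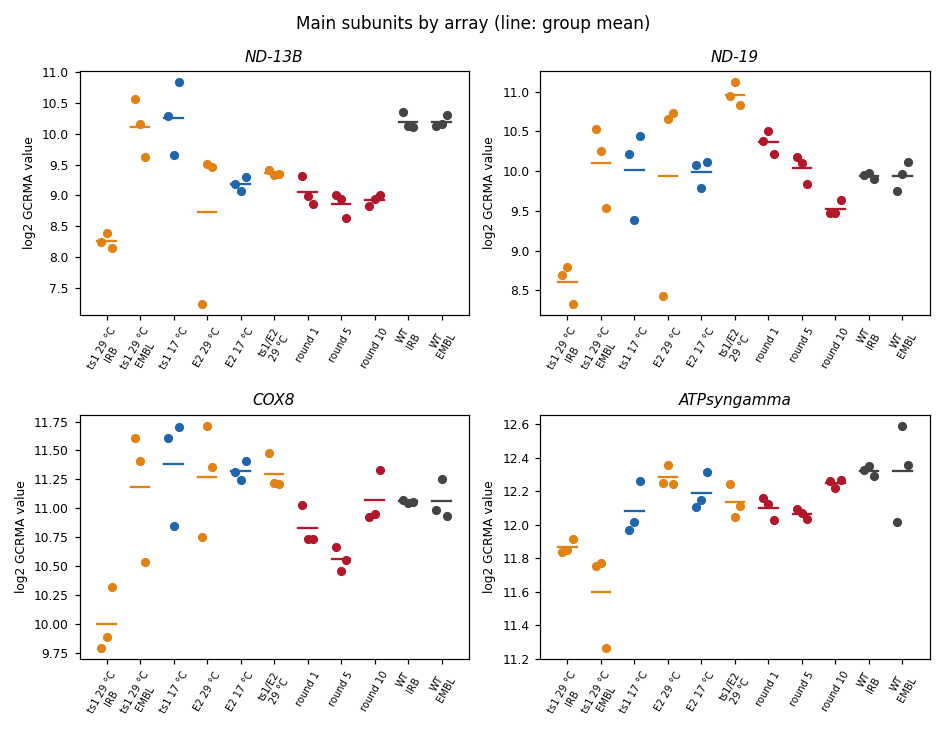
Log2 GCRMA value on each array (points) and group mean (lines) of ND-13B, ND-19, COX8 and ATPsyngamma, by group with WT at the right. ND-13B lies at 8.15 to 8.40 in ts1 brains at 29 °C at IRB and at 8.64 to 9.32 in tumours, against 10.1 to 10.4 in WT.

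In E2 brains at 29 °C limma called 0 subunits higher and 2 lower, with 4.53% and 6.38% over all genes. The median difference was -0.42, and -0.21 over all genes. Both calls were in complex I. ND-75, the large subunit that carries iron-sulphur clusters, had 3.97, 9.29 and 8.95 in E2 brains, against 9.99, 9.91 and 9.69 in WT. The fall of 2.46 ± 0.76 (limma, adjusted p = 0.0407) rested on replicate 1, and without the 3 weak arrays the difference was -0.74 (adjusted p = 0.0891). It also did not pass with any 1 of the 3 WT arrays left out (adjusted p up to 0.111). ND-13B had 7.24, 9.51 and 9.46 and differed by -1.45 ± 0.38 (limma, adjusted p = 0.0155). Without the weak arrays it differed by -0.71 (adjusted p = 0.0114). The call was lost without E2 replicate 1 alone (adjusted p = 0.128) and without WT replicate 1 (adjusted p = 0.0672). It was also lost with an additive site term (adjusted p = 0.109), which came from the site difference of the ts1 brains at 29 °C. Without the 3 weak arrays the median over all subunits became 0.08, with 3 higher and 3 lower, and over all genes 3.73% and 2.15%.

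ATPsynbeta, the catalytic subunit of the ATP synthase, showed how far 1 array could weigh. It had 6.28, 12.6 and 13.0 in E2 brains at 29 °C, against 13.0, 13.0 and 13.0 in WT at IRB. Its difference was -2.41 ± 1.06 (limma, adjusted p = 0.115), and the second ATPsynbeta probe set gave 0.13. In ts1 brains at 17 °C it had 13.1, 9.44 and 12.9, where 9.44 was again the array with a weak 5′ control.

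In ts1/E2 brains at 29 °C limma called 0 subunits in either direction, 2 had an unadjusted p under 0.05, and over all genes 3.55% were higher and 3.68% lower. The median difference was 0.02. ND-13B had 9.42, 9.33 and 9.35, all under the WT arrays, but its difference of -0.83 did not pass (adjusted p = 0.218). ND-19 had 10.9, 11.1 and 10.8, all over the WT arrays, with a difference of 1.02 (adjusted p = 0.118). Without the 3 weak arrays, which belong to other groups and enter through the shared spread, 5 subunits were called higher and 4 lower, and over all genes 5.6% and 9.21%.

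At 17 °C neither allele gave a call. In ts1 brains limma called 0 of 50 at 17 °C, 1 had an unadjusted p under 0.05, and over all genes 0.617% were higher and 0.774% lower. In E2 brains it called 0, 3 had an unadjusted p under 0.05, and over all genes 2.52% were higher and 2.64% lower. Without the 3 arrays 7 were called higher and 0 lower for ts1, and over all genes 1.45% and 0.774%. For E2 1 was then higher and 9 were lower, and over all genes 5.3% and 7.76%. ND-13B lay at 9.18, 9.07 and 9.30 in E2 brains at 17 °C, under every WT array, with a difference of -1.01 (limma, adjusted p = 0.135).

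With all arrays the temperature within an allele gave no call either. For ts1 at 29 °C against 17 °C limma called 0 of 50, 2 had an unadjusted p under 0.05, and over all genes 1.9% were higher and 0.69% lower. For E2 it called 0, 1 had an unadjusted p under 0.05, and over all genes 3.58% were higher and 3.99% lower. The E2 median difference was -0.33, and without the 3 weak arrays it was 0.22, with 5 subunits higher and 0 lower, and over all genes 4.09% and 1.94%. The sign of the E2 median thus depended on replicate 1 at 29 °C.

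**Figure D4:**
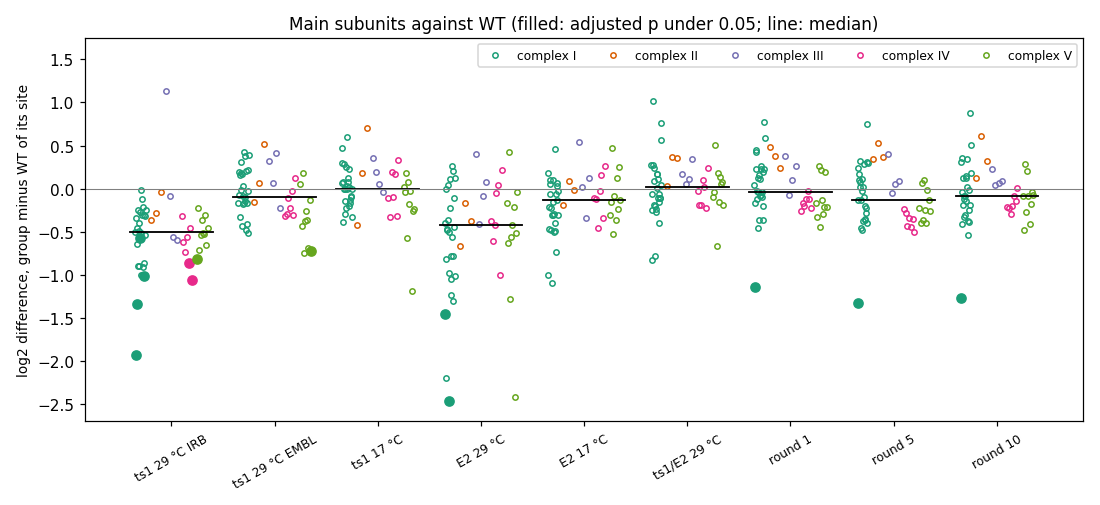
Log2 difference from WT of the same site for each of the 50 tested main subunits (points, coloured by complex, filled where the adjusted p is under 0.05), by group; lines are medians. The median is -0.51 in ts1 brains at 29 °C at IRB, -0.10 at EMBL and between -0.13 and -0.04 in the tumours.

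In tumours 1 main subunit was called against WT at each round. At round 1 limma called 0 of 50 higher and 1 lower, against 15.2% and 19.3% of all genes. At round 5 it called 0 higher and 1 lower, against 16.3% and 17.2%, and at round 10 0 higher and 1 lower, against 16% and 16.7%. The medians were -0.04, -0.13 and -0.08 at rounds 1, 5 and 10, and over all genes -0.01, 0.09 and 0.09. Arrays did not overlap WT for 14 subunits higher and 17 lower at round 1, where 29.5% and 33.4% of all genes did so. The counts were 10 and 23 at round 5, against 35.7% and 32.3%, and 11 and 20 at round 10, against 36.6% and 30.6%. Without the 3 weak brain arrays, which enter only through the shared spread, 6 were higher and 7 lower at round 1, against 20.7% and 26.5% of all genes. In the same fit 3 were higher and 15 lower at round 5, against 24% and 22.8%, and 5 and 9 at round 10, against 23% and 21.7%.

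The subunit called at each round was ND-13B. It had 9.32, 8.99 and 8.86 at round 1, 9.0, 8.94 and 8.64 at round 5 and 8.82, 8.95 and 9.0 at round 10, against 10.4, 10.1 and 10.1 in WT at IRB, with no overlap. The differences were -1.14 (limma, adjusted p = 0.0212, 2.20-fold), -1.33 (adjusted p = 0.00736) and -1.27 (adjusted p = 0.0109). With a site term estimated over both sites the 3 differences were -0.67, -0.87 and -0.80, and none passed (adjusted p = 0.226, 0.110 and 0.142). The call at round 1 was also lost without round 1 replicate 2 (adjusted p = 0.0565), round 1 replicate 3 (0.0744) or WT replicate 1 (0.0710).

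By complex, subunits of complex IV lay lower at round 5 and those of complex II higher, by amounts that did not pass the test. At round 5 all 7 tested subunits of complex IV were under WT with no overlap of arrays, with a median of -0.36 and a range of -0.50 to -0.24, where 32.3% of all genes were lower with no overlap. The 3 subunits of complex II had differences between 0.35 and 0.53 at round 5, also without overlap, where 35.7% of all genes were higher with no overlap. SdhB, the iron-sulphur subunit of succinate dehydrogenase, had 10.6, 10.5 and 10.3 at round 5, against 10.1, 10.2 and 10 in WT at IRB. Its difference was 0.35 (limma, adjusted p = 0.602). At rounds 1 and 10 the complex IV medians were -0.17 and -0.20, with 4 and 5 of the 7 lower without overlap, and COX8 differed by 0.01 at round 10. Complex II lay between 0.23 and 0.48 at round 1 and between 0.13 and 0.61 at round 10, with 2 of 3 without overlap at each.

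With all arrays, core and long-known subunits of the complexes were not called in tumours. From round 1 to round 10, differences from WT were -0.46, -0.46 and -0.33 for ND-75, and -0.04, -0.13 and -0.13 for ND-51, which binds NADH. They were -0.26, -0.24 and -0.22 for COX4, -0.17, -0.28 and -0.23 for COX5A, and -0.21, -0.02 and -0.18 for ATPsynbeta. In the fit without the 3 arrays with a weak 5′ control, COX4 was called lower at round 1 (limma, adjusted p = 0.0450).

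Across the rounds the main subunits gave no call with all arrays. Between round 5 and round 1 limma called 0 of 50, 0 had an unadjusted p under 0.05, and over all genes 1.36% were higher and 3.47% lower. Between round 10 and round 5 it called 0, 0 had an unadjusted p under 0.05, and over all genes 0.169% were higher and 0.133% lower. Between round 10 and round 1 it called 0, 1 had an unadjusted p under 0.05, and over all genes 2.26% were higher and 4.28% lower. ND-19 was the subunit with the largest difference over the rounds, with 10.4, 10.5 and 10.2 at round 1, 10.2, 10.1 and 9.84 at round 5 and 9.48, 9.47 and 9.64 at round 10. Rounds 1 and 10 did not overlap, and the difference of -0.84 had an adjusted p of 0.260 in limma.

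Round 1 tumours were also set against the ts1 brains at 29 °C of the same site. This comparison shares the ts1 arrays at IRB with the comparison of ts1 and WT. limma called 12 of 50 main subunits higher and 0 lower, against 18.9% and 15.2% of all genes. The median difference was 0.54, and 0.05 over all genes. In 34 of 50 the tumour arrays lay above all brain arrays and in 1 below, where 25.1% and 20.8% of all genes did so. Without the 3 weak arrays, none of which is in either group, 32 were called higher and 0 lower, against 27.8% and 22% of all genes.

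The largest rises among the 12 were in 3 subunits of complex I. ND-19 had 10.4, 10.5 and 10.2 in round 1 tumours, against 8.69, 8.80 and 8.32 in ts1 brains at IRB, a rise of 1.76 ± 0.38 (limma, adjusted p = 0.000967, 3.39-fold). ND-B18 had 10.2, 10.4 and 10.4 in tumours and 9.29, 9.25 and 8.84 in brains, a rise of 1.2 ± 0.32 (adjusted p = 0.00492). ND-20 averaged 11.3 in tumours and 10.2 in brains, a rise of 1.08 ± 0.40 (adjusted p = 0.0378). With arrays left out in turn the ND-20 rise passed only without ts1 replicate 5 (adjusted p up to 0.139). The fit without a site term sets the tumours against the ts1 arrays of both sites, a different set of brains. There none of the 3 rises passed (adjusted p = 0.0734, 0.0603 and 0.255).

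None of these 3 genes overlapped between the groups. The other calls lay between 0.45 for ND-51 and 0.98 for ATPsynCF6, a coupling subunit of the ATP synthase, and took in UQCR-Q of complex III and COX7B and COX8 of complex IV. Complex II gave no call, with differences of 0.28 to 0.85. Against WT the same 12 subunits were not called at round 1. ND-13B was not among the 12, with a difference of 0.79 (limma, adjusted p = 0.109).

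Markers of neurons and glia and the yolk proteins lay apart in this comparison, and those of larval fat body overlapped. The mean over 6 measured neuron markers was 7.81 to 8.35 per array in round 1 tumours, against 8.99 to 9.87 in ts1 brains at IRB, and over 4 glia markers it was 5.83 to 7.05 against 8.04 to 8.18. The yolk proteins Yp1, Yp2 and Yp3, known to be made by adult females, averaged 5.77 to 10.6 in round 1 tumours and 2.41 to 3.30 in those brains. The mean over 3 larval fat body markers was 3.17 to 7.51 in round 1 tumours, against 3.65 to 4.67 in those brains. The part of these cells in the results was not tested.

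Among OXPHOS genes outside the symbol rule, 7 were tested. In ts1 brains at IRB, where 3.55% of all genes were called higher and 6.79% lower, 0 were called higher and 2 lower, ox of complex III at -1.63 and Cyt-c1, cytochrome c1 of complex III, at -0.56 (limma, adjusted p = 0.0225 and 0.0147). blw, the alpha subunit of the ATP synthase, was 0.36 lower at round 1 (a log2 difference of -0.36, adjusted p = 0.0470). Of 9 tested assembly factors 1 was lower in ts1 brains at IRB, Cox11, which inserts copper into cytochrome c oxidase, at -2.16 (adjusted p = 0.0157). In round 1 tumours against those brains 3 were higher and 0 lower, against 18.9% and 15.2% of all genes, with CIA30, an assembly factor of complex I, at 2.73 and Cox11 at 1.82. Sdhaf3 was called nowhere.

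Of 12 tested genes of the citrate cycle, 1 was called higher and 1 lower at round 1, and 1 higher and 0 lower at rounds 5 and 10. Over all genes the shares were 15.2% and 19.3% at round 1, 16.3% and 17.2% at round 5 and 16% and 16.7% at round 10. The one raised was Ogdh, a subunit of the 2-oxoglutarate dehydrogenase complex. It stood 0.89 above WT at round 1 (limma, adjusted p = 0.000641), 0.81 at round 5, 0.82 at round 10, 0.80 in ts1/E2 brains and 0.76 in ts1 brains at 29 °C. Of 9 tested genes of glycolysis, 1 was higher and 0 lower at each round, against the same shares. Pglym78, a phosphoglycerate mutase, stood 1.92 above the ts1 brains at IRB at round 1 (limma, adjusted p = 4.77e-06). Among 6 tested regulators, ewg, the fly relative of the human nuclear respiratory factor NRF1, was lower at rounds 1, 5 and 10 by differences of -1.17, -1.23 and -1.16 (limma, adjusted p = 0.000532, 0.000298 and 0.000568). PolG1, the catalytic subunit of the mitochondrial DNA polymerase, was higher at rounds 5 and 10 by 2.57 and 2.66 (adjusted p = 0.0190 and 0.0158).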

How the data were processed

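Total RNA of larval brains and cultured tumours had been hybridised to Affymetrix arrays, 1 per sample. The authors deposited log2 values per probe set, computed with GCRMA per the submitters' processing notes (version not given in the sources used here). WT means at IRB and EMBL agreed within 6.7e-09 over 18952 probe sets, so the sites had been centred on WT, a step the labels do not describe. SEs against WT lack the spread between sites.

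Groups came from the sample titles. Each gene was taken from its probe set with the highest mean among 13647 annotated to 1 gene. Genes over a log2 of 4 on 3 or more arrays, 8264 in all, were fitted in R 4.3.3 with limma 3.58.1, as 11 cells of group and site. Contrasts were taken within a site, and p was adjusted by Benjamini-Hochberg. Arrays have no read depth, so 3 or 6 arrays per group limit the precision. The fit was tested on simulated data.

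The members and lists were chosen with earlier results of these data known. Named, per comparison, were up to 3 called subunits each way without overlap of arrays. Every tested paralog and 1 or 2 core subunits per complex were named too. So were some subunits whose probe sets disagree, and up to 4 called genes per other list. ND-49, SdhA and UQCR-C1 were not analysed here, and no sequences were printed. Of 73 members 6 had several probe sets, and 4 probe sets naming several genes were not used. Same-numbered arrays were checked for pairing: in 0 of 37 pairs of groups did every pair correlate over 0.1, so numbers were not used as pairs. Alternatives were another site term, filter, probe set, centring, moderation, a 2-fold minimum, a replicate block and arrays left out.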

Additional observations from a re-analysis of the deposited data

Results flagged for a closer look

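In 38 groups of 6 arrays over 19 genes, 4 held 1 array whose gap to the next, as a share of the group's range, exceeded Dixon's critical value. Chance gives about 1 in 20. All 4 were arrays of ts1 brains at 29 °C. ATPsyngamma was 11.3 on replicate 3 (EMBL), next to 11.8, with a share of 0.752. ATPsynbeta was 10.8 on the same array, next to 12.7, with a share of 0.806. That array is one of the 3 with a weak 5′ control. COX6AL2 was 8.35 on replicate 6 (IRB), next to 4.22, with a share of 0.707. COX5BL was 3.20 on replicate 5 (IRB), next to 2.41, with a share of 0.772, and all of its values in that group were near background.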

How the results depend on the processing

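Counts are of main subunits called, and no result changed sign past the threshold. Without a site term they were 1 for ts1 at 29 °C, 8 for E2 at 29 °C, 1 for E2 at 17 °C, 2 at round 10 and 3 for round 1 against ts1. With an additive site term they were 4 for E2 at 29 °C, 1 for ts1/E2, 0 at round 5 and 6 for round 1 against ts1. Both fits took the WT and ts1 29 °C arrays of both sites together, and neither could give values per site.

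Without 5 arrays that stand apart, counts against WT were 16 for ts1 at 29 °C, 30 at IRB, 11 at EMBL, 9 for E2 at 29 °C, 11 for ts1/E2, 8 for ts1 and 9 for E2 at 17 °C, and 15, 21 and 15 at rounds 1, 5 and 10. They were 2 and 1 for 29 °C against 17 °C in ts1 and E2, 29 for round 1 against ts1, 2 for rounds 5 and 10 against round 1, and 28 between the sites. Without only the 3 arrays with a weak 5′ control, an alternative chosen after seeing the data, counts in the same order were 17, 33, 9, 6, 9, 7, 10, 13, 18 and 14 against WT, then 1, 5 and 32, 2 for round 10 against round 1, and 30 between the sites. The 5 arrays that stand apart are these 3, E2 at 17 °C replicate 2 and ts1 at 29 °C replicate 6, so the settings overlap. The cause of the change in counts was not tested.

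With no filter the counts were 6 for ts1 at 29 °C, and 1 each for E2 at 17 °C, ts1 at 29 °C against 17 °C and the sites. The lowest probe set gave 1 for ts1 at 29 °C and 0 at EMBL, and the mean of probe sets 0 at EMBL and 1 between the sites. Centring arrays on their median gave 4 for ts1 at IRB, 4 for E2 at 29 °C, 1 for ts1/E2, 4 at round 10, 1 for round 10 against round 1 and 1 between the sites. Trend and robust moderation gave 5 for ts1 at 29 °C, 11 at IRB, 1 for E2 at 17 °C, 1 for ts1 at 29 °C against 17 °C and 2 between the sites. A 2-fold minimum gave 1, 4 and 0 for ts1 at 29 °C over both sites, at IRB and at EMBL, and 3 for round 1 against ts1. The replicate block could be fitted only for arrays numbered 1 to 3. It gave 1 for E2 at 29 °C and 0 at round 1, where the adjusted p of ND-13B was 0.0501. That of ND-75 in E2 at 29 °C was 0.0779, and that of ATPsynepsilonL between rounds 10 and 1 was 0.0521.

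With arrays left out in turn, counts ranged from 2 to 9 for ts1 at 29 °C (9 without replicate 1), 4 to 9 at IRB (4 without ts1 replicate 4 or 6 or WT replicate 2, 9 without ts1 replicate 5), 0 to 16 for E2 at 29 °C (0 without replicate 1, 16 without replicate 2, 12 without replicate 3), 0 to 6 for E2 at 29 °C against 17 °C (6 without replicate 2 at 29 °C), 7 to 12 for round 1 against ts1 (7 without round 1 replicate 1 or ts1 replicate 6) and 0 to 5 between the sites (5 without ts1 replicate 3). They ranged from 0 to 1 at round 1, were 1 at EMBL and at rounds 5 and 10, and were 0 in all other comparisons.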

Other observations

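Nuclear genes for mitochondrial ribosomal proteins, which translate the few subunits encoded in the mitochondrion, were also measured. Of 69 tested, 0 were called higher and 6 lower in ts1 brains at 29 °C at IRB, against 3.55% and 6.79% of all genes, with a median difference of -0.52, and -0.14 over all genes. At EMBL the median was 0.19. mRpL54, a protein of the large subunit, fell by 2.22 at IRB (limma, adjusted p = 0.0192). Between the sites 0 were called higher and 2 lower, against 1.2% and 2.7%. In round 1 tumours against the ts1 brains at IRB 21 were called higher and 0 lower, against 18.9% and 15.2% of all genes, with a median of 0.86 and a rise of 1.70 in mRpL42 (limma, adjusted p = 3.6e-05). Against WT 3 were higher and 1 lower at round 1, against 15.2% and 19.3%. The comparisons of ts1 with WT at IRB and of round 1 with ts1 share the ts1 arrays.

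At round 1, where 15.2% of all genes were called higher than WT and 19.3% lower, markers of other cells were called as follows. Muscle markers averaged 5.60 to 7.09 over 8 genes in round 1 tumours, against 4.28 to 5.06 in WT at IRB, and 4 were called higher and 0 lower. Over 6 hemocyte markers the mean was 4.51 to 5.50 in round 1 tumours and 3.38 to 4.62 in WT at IRB, with 2 called higher and 1 lower. Over 7 neuroblast markers it was 9.30 to 9.92 in round 1 tumours and 9.83 to 10.2 in WT at IRB, with 0 higher and 3 lower.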
